A study of Homo sapiens with 4 samples.

Results

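The antioxidant programme governed by the transcription factor NRF2 was read gene by gene in 4 RNA-seq libraries. Its 9 members, of 17963 genes listed in the series, were picked by name and matched through their Entrez identifiers: NFE2L2, which encodes NRF2 itself, its repressor gene KEAP1, and the target genes GCLC, GCLM, TXNRD1, SRXN1, NQO1, HMOX1 and FTH1. All 9 were listed in each of the 4 gene tables and all passed the filter on low values, with at least 124 counts in every library. The libraries are those of cells labelled HepG2, a human line from a liver tumour, in 4 groups with 1 library each: cells transfected with FLAG-JFK, set against cells given the vector, and cells treated with ING5 siRNA, set against a control siRNA. JFK is an older name of FBXO42, the substrate-binding subunit of a ubiquitin ligase, and ING5 is a chromatin-reading subunit of histone acetyltransferase complexes. No dose or time is stated in the labels.

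NRF2 is a leucine-zipper transcription factor that is held at a low level in unstressed cells because KEAP1 presents it to a cullin-3 ubiquitin ligase. Electrophiles and oxidants modify cysteines of KEAP1, NRF2 then accumulates, pairs with a small MAF protein and binds the antioxidant response element in front of its target genes. In liver these targets make glutathione, recycle thioredoxin and peroxiredoxin, reduce quinones, break down haem and store iron. NRF2 is controlled mainly through the stability of its protein, so the NFE2L2 transcript is no measure of its activity.

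The letters of the antioxidant response element near the members' starts are shown for reference. Members were picked by name as NRF2, its repressor and its targets, so this motif is not independent of that choice. The core TGACNNNGC was sought on both strands in the 250 bases before each start in RefSeq (GRCh38.p14), where 7 of the 9 members had an entry, with 10 starts in all; HMOX1 and FTH1 had none. A match stood before 4 of the 10 starts, in GCLM, TXNRD1 and KEAP1, against 10.9% of 35116 such windows over all genes. NFE2L2, GCLC, NQO1 and SRXN1 had no match in these windows, and bases farther from the starts were not searched. Each match is written from 5′ to 3′ on the strand that carries the motif, with 10 bases on either side and the core in capitals; none overlapped the related AP-1 motifs TGACTCA or TGAGTCA.
GCLM: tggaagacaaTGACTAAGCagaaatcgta
TXNRD1, upstream start: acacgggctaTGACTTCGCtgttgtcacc
TXNRD1, downstream start: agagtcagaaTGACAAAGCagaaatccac
KEAP1, farther from the start: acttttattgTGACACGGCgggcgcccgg
KEAP1, nearer to the start: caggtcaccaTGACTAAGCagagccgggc

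Coordinates are those of the printed stretch with its flanks, and positions are those where the core begins, counted along the gene. The GCLM stretch lies at chr1:93909446-93909474 on the plus strand, opposite to the gene, with its core at position -34 from the start. The TXNRD1 stretches lie at chr12:104215670-104215698 on the plus strand (core at position -99) and at chr12:104286920-104286948 on the minus strand (core at position -102). Those of KEAP1 lie at chr19:10502807-10502835 on the minus strand (core at position -54) and chr19:10502784-10502812 on the plus strand (core at position -31). Both cores are before the downstream of its 2 starts. The upstream TXNRD1 match touched no exon of its gene in the GENCODE annotation of that build. The other 4 touched an exon of some annotated transcript, and none touched coding sequence. GCLM and KEAP1 carried the same core, TGACTAAGC. A match describes the letters in the window and not binding.

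For wider context, the 250 bases before the upstream TXNRD1 start (chr12:104215529-104215778, plus strand) are given, with the core in capitals.
TXNRD1 window: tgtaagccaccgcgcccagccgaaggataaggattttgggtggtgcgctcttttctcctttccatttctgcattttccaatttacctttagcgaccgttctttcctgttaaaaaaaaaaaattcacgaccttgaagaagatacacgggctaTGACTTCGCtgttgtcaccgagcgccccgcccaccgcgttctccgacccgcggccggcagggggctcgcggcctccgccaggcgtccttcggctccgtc

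Several facts of the whole series bear on the members. Gene counts summed to 7237320 in the library labelled JFK, against 7179360 in vector, and to 9030080 in ING5 siRNA and 9196980 in control siRNA. FBXO42 had 115 counts in the library labelled JFK, against 116 in vector, so the transcript named by the label was not higher there and the library is called by its label throughout. ING5 had 81 counts in ING5 siRNA and 144 in control siRNA (log2 fold −0.81, interval −1.23 to −0.41). Of 13 hepatocyte markers sought, 4 reached 20 counts in each library (VTN, RBP4, HNF4A and CPS1), while ALB, TTR and TF were at 0 in every library and AFP had at most 1 count. Of 7 markers of other epithelial lines, KRT17, KRT7 and ALPP reached 20 counts in each library, and GATA3 also did in ING5 siRNA. The summed level of these 7 was 8235 CPM (counts scaled to equal library totals) in the library labelled JFK, 7294 CPM in vector, 1655 CPM in ING5 siRNA and 2233 CPM in control siRNA. Within it KRT7 took the other direction in the vector pair, with 5183 counts in the library labelled JFK, against 8414 in vector. The 13 hepatocyte markers summed to 3458 CPM in the library labelled JFK, 3478 CPM in vector, 4651 CPM in ING5 siRNA and 5144 CPM in control siRNA. Of these markers, APOA1, APOB and SERPINA1 had at most 7 counts in any library. CPS1 made most of each sum. It had 22227 counts in the library labelled JFK, 22654 in vector, 41314 in ING5 siRNA and 46771 in control siRNA. In the same order of libraries, 4 endothelial markers summed to 164, 146, 12.1 and 26.3 CPM, 6 leukocyte markers to 184, 183, 50.5 and 61.5 CPM, and 6 fibroblast markers to 78.9, 76.5, 94.2 and 96.2 CPM. CDH5, an endothelial cadherin gene, made most of the endothelial sum, with 87 counts in ING5 siRNA and 224 in control siRNA. The part of the cells' identity in the results below was not tested.

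The members covered a range of more than 2 orders of magnitude in every library. Levels are given per gene length and library size, as deposited: FPKM for the vector pair and RPKM for the siRNA pair. FTH1, the heavy chain of the iron-storage protein ferritin, had 2571 FPKM in the library labelled JFK and 2465 FPKM in vector, and 4122 RPKM in ING5 siRNA and 3218 RPKM in control siRNA. It was the fifth most abundant gene by this level in both libraries of the vector pair, the second in ING5 siRNA and the third in control siRNA. FTH1 has many processed pseudogene copies, so reads could have been divided and its level is uncertain.

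Next in order stood TXNRD1, the cytosolic thioredoxin reductase, and NQO1, the quinone reductase that is the most widely used readout of NRF2. NQO1 had 240.5 FPKM in the library labelled JFK and 231 FPKM in vector, above TXNRD1 at 192 FPKM in the library labelled JFK and 211 FPKM in vector. The order was turned in the siRNA pair, where TXNRD1 had 152 RPKM in ING5 siRNA and 133 RPKM in control siRNA, and NQO1 had 116 RPKM in ING5 siRNA and 109.99 RPKM in control siRNA. The counting intervals of these neighbours did not overlap in any of the 4 libraries.

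NFE2L2 and SRXN1, the sulfiredoxin that repairs over-oxidised peroxiredoxin, formed the middle of the range in the vector pair. SRXN1 had 47.1 FPKM in the library labelled JFK and 56.5 FPKM in vector, and NFE2L2 had 44.7 FPKM in the library labelled JFK and 46.9 FPKM in vector. These neighbours overlapped in the library labelled JFK (44.1 to 50.2 and 41.8 to 47.6 FPKM) and not in vector. In the siRNA pair NFE2L2 stood clear of SRXN1, with 66.4 RPKM in ING5 siRNA and 78.5 RPKM in control siRNA, while SRXN1 had 23.1 RPKM in ING5 siRNA and 25.6 RPKM in control siRNA.

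In the vector pair the lowest levels were those of KEAP1, HMOX1 and the 2 subunits of glutamate-cysteine ligase, the enzyme of the first step of glutathione synthesis. In the siRNA pair GCLC stood above SRXN1, with intervals that did not overlap, and the lowest were GCLM, HMOX1 and KEAP1. GCLC, the catalytic subunit, had 13.3 FPKM in the library labelled JFK and 16.2 FPKM in vector, and 31.6 RPKM in ING5 siRNA and 33.4 RPKM in control siRNA. GCLM, the modifier subunit, had 27.6 FPKM in the library labelled JFK and 26.9 FPKM in vector, and 19.1 RPKM in ING5 siRNA and 14.3 RPKM in control siRNA. GCLM thus stood above GCLC in the vector pair and below it in the siRNA pair. KEAP1 had 29.2 FPKM in the library labelled JFK and 27.1 FPKM in vector, and 10.6 RPKM in ING5 siRNA and 14.1 RPKM in control siRNA. HMOX1, the stress-inducible haem oxygenase, had 14.6 FPKM in the library labelled JFK and 11.0 FPKM in vector, and 10.7 RPKM in ING5 siRNA and 8.39 RPKM in control siRNA. Neighbours in this range were not always separated: KEAP1 and GCLM overlapped in the library labelled JFK, in vector and in control siRNA, HMOX1 and GCLC in the library labelled JFK, and HMOX1 and KEAP1 in ING5 siRNA.

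**Figure D1:**
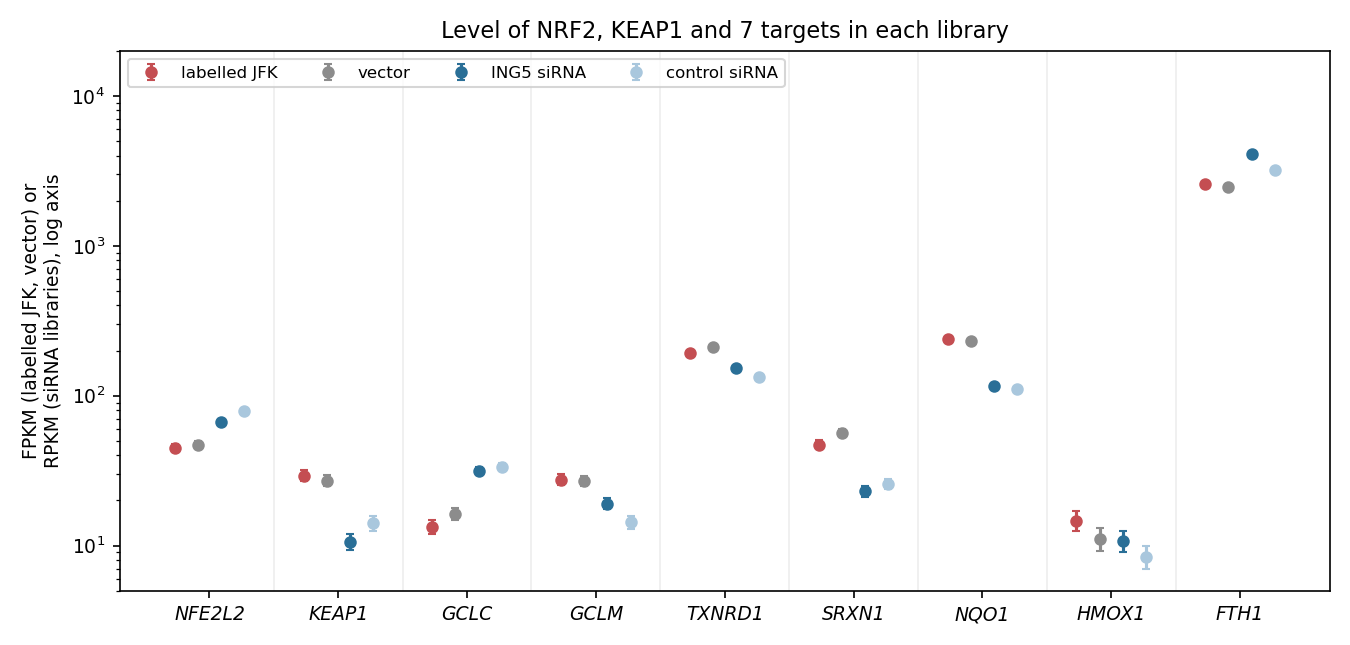
Level of each member in the library labelled JFK, vector, ING5 siRNA and control siRNA, as deposited FPKM (first 2) or RPKM (last 2) on a log axis. Points are single libraries and bars the exact 95% Poisson interval of the count; FTH1 is highest, between 2465 and 4122, and HMOX1 lies between 8.39 and 14.6.

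The first question was whether the NRF2 transcripts differ between the library labelled JFK and vector. No member was 1.5-fold apart, against 3.57% of all 12107 genes measured (181 higher and 251, or 2.07%, lower, 41.9% of the calls higher; 143 and 308 with scaling by the total count, 31.7% higher; 136 and 300 by FPKM, 31.2% higher). Of the 9177 genes with a mean scaled count of at least 100, which all members reached, 0.894% were 1.5-fold apart. The members' log2 folds ran from −0.24 to 0.45, with a median of 0.08 beside 0.00 for all genes measured; 5 lay above 0 and 4 below. With whole counts only, which leaves out NQO1 and GCLM, the members' median was −0.06. HMOX1 was the highest and GCLC the lowest. With 1 library per group there is no test and no replicate check. Each interval is an exact 95% (Clopper-Pearson) interval on the log2 ratio and reflects counting error alone. In bulk RNA, fewer cells that express a gene and less of its RNA per cell cannot be told apart.

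The regulators differed little. NFE2L2 had 916 counts in the library labelled JFK, against 952 in vector, a log2 fold of −0.03 with an interval of −0.16 to 0.10. KEAP1 had 552 counts against 506 in vector (0.15, interval −0.03 to 0.33). For both genes the interval held 0.

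The subunits of glutamate-cysteine ligase lay on either side of 0. GCLC had 373 counts in the library labelled JFK, against 448 in vector (−0.24, interval −0.44 to −0.04). GCLM had 619.8 expected counts against 597.7 in vector (0.08, interval −0.09 to 0.24), estimates that are not whole. The interval of the catalytic subunit lay below 0 and that of the modifier subunit held 0.

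Of the thiol enzymes, SRXN1 had 930 counts in the library labelled JFK, against 1100 in vector (−0.22, interval −0.35 to −0.09). TXNRD1 had 5731 counts against 6133 in vector (−0.07, interval −0.13 to −0.02). Both were lower, by 14.0% and 4.97% of the vector level.

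Of the remaining targets, HMOX1 had 170 counts in the library labelled JFK, against 126 in vector, the largest difference of any member (0.45, interval 0.12 to 0.80), or 37.1% more. NQO1 had 4542 expected counts against 4300 in vector (0.10, interval 0.04 to 0.16), and FTH1 had 23003 counts against 21760 (0.10, interval 0.08 to 0.13). At a lower threshold chosen after the values were seen (25% higher or 20% lower), HMOX1 was the 1 member apart and was higher, against 16.4% of all genes (7.02% higher and 9.37% lower). Among genes with a mean scaled count of at least 100, the interval lay wholly above 0 for 3 members (17.3% of 9177 genes) and wholly below 0 for 3 members (13.0%).

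ING5 siRNA was set against control siRNA to ask whether the NRF2 transcripts depend on ING5. Again no member was 1.5-fold apart, against 8.41% of 11634 genes measured (4.01% higher and 4.40% lower) and 5.07% of those with a mean scaled count of at least 100. The members' log2 folds ran from −0.41 to 0.42, with a median of 0.08 beside −0.01 for all genes. GCLM, FTH1 and HMOX1 stood highest and KEAP1 and NFE2L2, the regulators, lowest. At 25% higher or 20% lower, 4 of 9 members were apart, 3 of them higher and 1 lower, against 27.0% of all genes (12.8% higher and 14.1% lower).

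Both regulators were lower in ING5 siRNA. NFE2L2 had 1729 counts in ING5 siRNA and 2066 in control siRNA (−0.24, interval −0.33 to −0.15), or 15.4% less. KEAP1 had 251 counts against 337 in control siRNA (−0.41, interval −0.65 to −0.17), or 24.6% less. The genes of the activator and of its repressor were thus both lower, and neither interval held 0.

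GCLM had 534 counts in ING5 siRNA and 404 in control siRNA (0.42, interval 0.23 to 0.61), the largest difference of a target in this pair. GCLC had 1099 counts against 1174 in control siRNA (−0.08, interval −0.20 to 0.04). As in the vector pair, the value of the modifier subunit was above 0 and that of the catalytic subunit below.

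TXNRD1 had 5949 counts in ING5 siRNA and 5243 in control siRNA (0.20, interval 0.14 to 0.25). SRXN1 had 568 counts against 637 in control siRNA (−0.15, interval −0.32 to 0.02). TXNRD1 was 14.7% higher, while the interval of SRXN1 held 0.

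FTH1 had 46740 counts in ING5 siRNA and 36855 in control siRNA, 0.518% and 0.401% of all reads in genes (0.36, interval 0.34 to 0.38). HMOX1 had 156 counts against 124 in control siRNA (0.35, interval −0.00 to 0.70), and NQO1 2753 against 2632 (0.08, interval 0.00 to 0.16). The interval lay wholly above 0 for 4 members (20.5% of 9090 genes with a mean scaled count of at least 100) and wholly below 0 for 2 (24.2%). Genes with more reads have narrower intervals, so FTH1, with the most reads of the 9, had the narrowest.

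**Figure D2:**
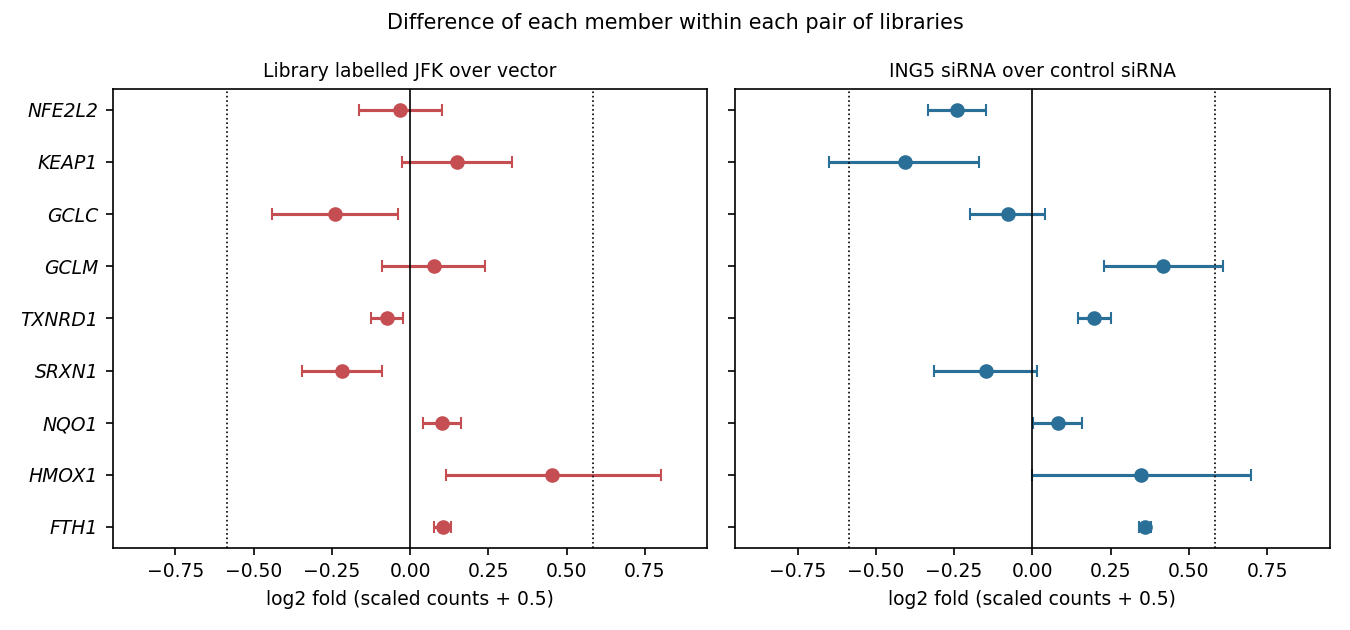
Log2 fold of each member in the library labelled JFK over vector (left) and in ING5 siRNA over control siRNA (right), with exact 95% intervals that cover counting error only. Dotted lines mark 1.5-fold in either direction; every point lies between them, from −0.24 to 0.45 on the left and from −0.41 to 0.42 on the right.

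The pairs have separate controls, so the members' directions were set side by side. NQO1, HMOX1, GCLM and FTH1 were above 0 in both pairs, NFE2L2, GCLC and SRXN1 below 0 in both, and KEAP1 and TXNRD1 took opposite directions. The same direction was thus seen for 7 of 9 members, against 49.7% of 11148 genes measured in both pairs. Only NQO1 and FTH1 had intervals on the same side of 0 in both. For NQO1 this was marginal in the siRNA pair, where its interval began at 0.003. Its log2 fold there was 0.081, against 0.065 with median-of-ratios scaling, so its side of 0 is uncertain. The interval of NFE2L2 and of GCLM held 0 in the vector pair, and that of HMOX1, GCLC and SRXN1 in the siRNA pair. Most of these shared directions were thus not resolved beyond counting error. For KEAP1 the intervals of the pairs did not overlap (−0.03 to 0.33 against vector, −0.65 to −0.17 against control siRNA), and neither did those of TXNRD1 (−0.13 to −0.02 and 0.14 to 0.25). FTH1 lay above 0 in both, with intervals that also did not overlap (0.08 to 0.13 and 0.34 to 0.38). The difference between the pairs was not tested, since each group holds 1 library.

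HMOX1 had the largest difference of any member over both pairs, and the genes nearest to it were sought over its 2 log2 folds among 8221 genes. The nearest 5 were PLXNB1, BCAM, RAB40C, LRRC45 and BID, at distances of 0.03 to 0.06 on the log2 scale. PLXNB1, the closest, had 232 counts in the library labelled JFK, against 175 in vector (0.43), and 132 in ING5 siRNA and 106 in control siRNA (0.33). In all, 14 genes lay within 0.1 of HMOX1. With 4 libraries and a pair of folds, such likeness is a description.

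The balance of the enzyme subunits was then read within each library, where no scaling between libraries enters. The ratio of GCLM to GCLC, as levels per kilobase, was 2.07 in the library labelled JFK (counting interval 1.82 to 2.36) and 1.66 in vector (1.47 to 1.88). It was 0.604 in ING5 siRNA (0.544 to 0.671) and 0.428 in control siRNA (0.381 to 0.480). The intervals overlapped in the vector pair and not in the siRNA pair, and the ratio was higher in the library labelled JFK than in vector and in ING5 siRNA than in control siRNA. The ratio of FTL, the light chain of ferritin, to FTH1 was 0.521 in the library labelled JFK (0.508 to 0.534) and 0.490 in vector (0.477 to 0.503), and 0.296 in ING5 siRNA (0.289 to 0.302) and 0.291 in control siRNA (0.284 to 0.298). Both ferritin chains were higher in ING5 siRNA, FTL with 9866 counts against 7653 in control siRNA (0.38), so their ratio hardly differed in that pair.

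**Figure D3:**
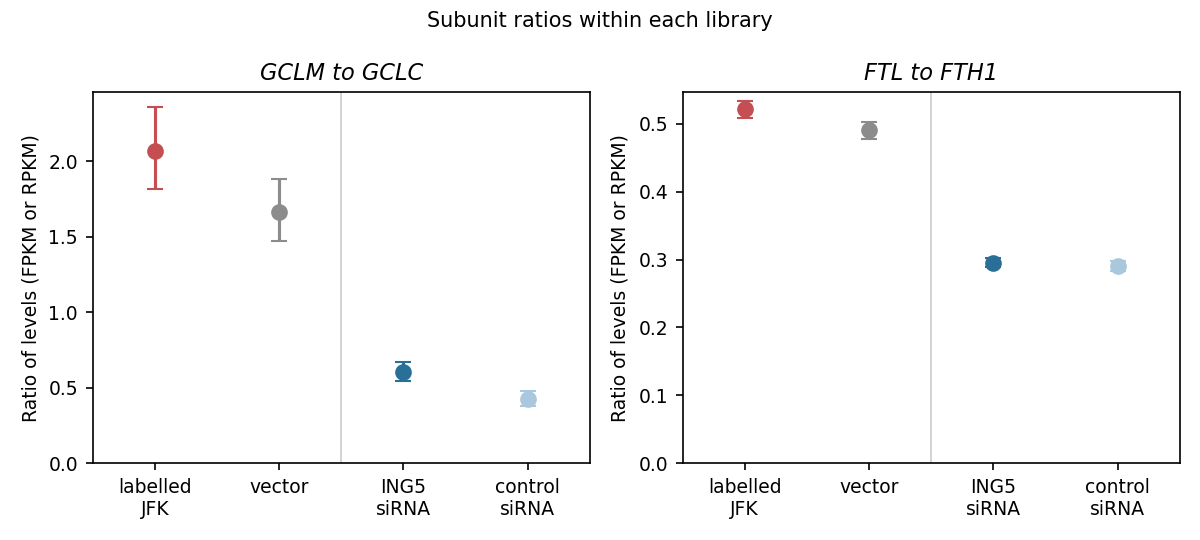
Ratio of the levels of GCLM to GCLC (left) and FTL to FTH1 (right) in the library labelled JFK, vector, ING5 siRNA and control siRNA, with exact 95% counting intervals. GCLM exceeds GCLC in both libraries of the vector pair, at 2.07 in the library labelled JFK, against 1.66 in vector, and falls short of it in ING5 siRNA and control siRNA, at 0.604 and 0.428.

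HMOX1, TXNRD1 and NQO1 have relatives, which were read beside them. HMOX2, the constitutive haem oxygenase, had 395.5 expected counts in the library labelled JFK, against 426 in vector (−0.08), and 448 counts in ING5 siRNA and 438 in control siRNA (0.05). Its level per kilobase was 2.08 times that of HMOX1 in the library labelled JFK and 3.04 times in vector, and 2.46 times in ING5 siRNA and 3.03 times in control siRNA. TXNRD2, the mitochondrial thioredoxin reductase, had 280 counts against 246 in vector (0.21, interval −0.04 to 0.46), and 181 in ING5 siRNA against 189 in control siRNA (−0.05). NQO2, a quinone reductase relative of NQO1, had 346 counts in ING5 siRNA and 266 in control siRNA (0.39, interval 0.16 to 0.63), while in the vector pair it lay at 0.00.

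For 8 of the 9 members the difference between the experiments was larger than that within either pair. HMOX1, at −0.22, was the exception. The same order held for the median size of the log2 fold over all genes measured. This median was 0.71 for control siRNA over vector. It was 0.15 for the library labelled JFK over vector and 0.18 for ING5 siRNA over control siRNA. The share of all genes that met the members' criterion was not counted. Control siRNA was set against vector after the levels had been seen; their tables were made separately, in different units, so experiment, cells and table cannot be told apart. In this comparison 6 of 9 members were at least 1.5-fold apart, against 58.0% of 12006 genes (29.8% higher and 28.1% lower), a share near the background; 2 members were higher and 4 lower. Of all genes 3583 were higher and 3377 lower, against 2828 and 4032 with scaling by the total count and 2709 and 4157 by RPKM over FPKM. These scalings shifted the median of all genes by −0.17 and −0.21 from 0.05, and each member kept its direction under them. GCLC had 1174 counts in control siRNA and 448 in vector (1.19), and NFE2L2 had 2066 in control siRNA and 952 in vector (0.92). SRXN1 had 637 counts in control siRNA and 1100 in vector (−0.98). NQO1 stood at −0.90, KEAP1 at −0.78, GCLM at −0.76 and TXNRD1 at −0.42, while FTH1 stood at 0.56. GCLC and GCLM, subunits of a single enzyme, lay on opposite sides.

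The other genes of the pathway were taken from 7 lists with 99 genes, of which 89 were measured in the vector pair, while the siRNA pair had 87. In the library labelled JFK 0 of the 89 were 1.5-fold higher and 0 were 1.5-fold lower (background 3.57%), with a median log2 fold of 0.04; 80 of the 89 had a mean scaled count of at least 100, where the background was 0.894%. In ING5 siRNA 3 of the 87 were higher and 4 lower (background 8.41%), with a median of −0.05; 83 of the 87 had a mean of at least 100, the 7 apart among them, where the background was 5.07%. The 3 that were higher are MAFK, IDH2 and SOD2, and the 4 that were lower are PRDX2, CHAC2, ABCC2 and ABCC4.

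NRF2 acts with small MAF proteins, and BACH1 competes with it at the same element. Of 15 measured partner and control genes, 0 were 1.5-fold apart in the vector pair and 1, MAFK, was in the siRNA pair. MAFK, a small MAF partner, had 495 counts in ING5 siRNA and 305 in control siRNA (0.71, interval 0.51 to 0.93), and its relative MAFF 274 and 205 (0.43). BACH1 stood at 0.00 in the library labelled JFK and 0.01 in ING5 siRNA, and the cullin gene CUL3 at −0.15 and 0.01. The intervals of both genes held 0 in both pairs. RBX1, the RING subunit that works with the cullin, had 492 counts in the library labelled JFK, against 579 in vector (−0.21), and 201 in ING5 siRNA and 275 in control siRNA (−0.44, interval −0.71 to −0.17). SQSTM1, the autophagy receptor that can sequester KEAP1, had 8585 counts in the library labelled JFK, against 7402 in vector (0.24, interval 0.19 to 0.28), and lay at −0.11 in ING5 siRNA. PALB2, which can bind KEAP1, had 291 counts in the library labelled JFK, against 378 in vector (−0.35). DPP3, another KEAP1-binding protein gene, stood at 0.24 in that pair, and the coactivator gene CREBBP at −0.32 in ING5 siRNA.

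Of the genes of glutathione synthesis and use, 0 of 16 measured were 1.5-fold apart in the library labelled JFK, while in ING5 siRNA 0 of 15 were higher and 1 lower. SLC7A11, the cystine transporter subunit, had 560.2 expected counts in the library labelled JFK, against 806.8 in vector (−0.50, interval −0.66 to −0.35), the lowest of the list, and lay at 0.06 in ING5 siRNA. Glutathione synthetase, GSS, had 591 counts in the library labelled JFK, against 496 in vector (0.28, interval 0.10 to 0.45). CHAC1, with 26 counts in the library labelled JFK, against 22 in vector, stood at 0.26 and MGST2 at −0.11. Both intervals held 0. In ING5 siRNA the lowest were CHAC2, a glutathione-degrading enzyme gene, with 86 counts against 139 in control siRNA (−0.67, interval −1.08 to −0.28), and MGST3, a microsomal glutathione transferase, with 510 against 766 (−0.57). GPX4, the lipid peroxide reductase, had 1047 counts in ING5 siRNA and 829 in control siRNA (0.35, interval 0.22 to 0.49), and GSTM3 stood next at 0.12.

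Among 14 thioredoxin and peroxiredoxin genes, PRDX2, a cytosolic peroxiredoxin, was lowest in both pairs. It had 1658 counts in the library labelled JFK, against 2234 in vector (−0.41, interval −0.50 to −0.31), and 970 in ING5 siRNA and 1681 in control siRNA (−0.78, interval −0.89 to −0.66). PRDX3, the mitochondrial form, stood at −0.16 in the library labelled JFK and −0.27 in ING5 siRNA, and PRDX1, a known NRF2 target, at 0.08 and −0.05. The sestrin genes SESN1 and SESN2 stood at −0.39 (interval −0.83 to 0.04) and 0.41 (interval −0.13 to 0.96) in the library labelled JFK, and both intervals held 0. In ING5 siRNA 12 of the 14 lay below 0, and 1 was 1.5-fold lower. Their median was −0.06, beside −0.01 for all genes measured. The 14 include SESN2, whose mean scaled count was below 100 and whose interval held 0. The interval lay wholly below 0 for 5 of the 14 and wholly above 0 for 0. Among all genes with a mean scaled count of at least 100, these shares were 24.2% and 20.5%. TXNRD3 and PRDX5 were highest, at 0.22 and 0.08.

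The NADPH-supplying genes, which feed the reductases, included the 2 pentose phosphate enzymes TKT and PGD at 0.22 and 0.23 in the library labelled JFK. TKT had 6561 counts in the library labelled JFK, against 5724 in vector, and PGD had 2207, against 1913 in vector. The lowest of the list in that pair were IDH1, with 1543 counts in the library labelled JFK, against 1722 in vector (−0.13, interval −0.23 to −0.03), and IDH2 at −0.01. In ING5 siRNA the mitochondrial isocitrate dehydrogenase gene IDH2 had 502 counts against 308 in control siRNA (0.72, interval 0.51 to 0.93), while the cytosolic IDH1 had 1945 against 2445 (−0.31, interval −0.40 to −0.23). Of the 8 genes, 0 were 1.5-fold apart in the vector pair and IDH2 alone was in the siRNA pair. In that pair PGLS stood at −0.18, with an interval that held 0, and PGD at 0.13.

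Of 13 measured haem and iron genes, 0 were 1.5-fold apart in either pair. In ING5 siRNA 9 of 13 lay above 0, with a median of 0.12 beside −0.01 for all genes measured. The interval lay wholly above 0 for 6 of the 13 and wholly below 0 for 2. Among all genes with a mean scaled count of at least 100, these shares were 20.5% and 24.2%. Beside FTH1 and FTL, the haem transporter gene SLC48A1 had 335 counts in ING5 siRNA and 243 in control siRNA (0.48, interval 0.24 to 0.72) and the iron transporter gene SLC11A2 1570 and 1192 (0.41, interval 0.30 to 0.52). The transferrin receptor gene TFRC was also higher, with 15508 counts in ING5 siRNA and 12334 in control siRNA (0.35, interval 0.31 to 0.38). Lower were BLVRB, for biliverdin reductase B, with 202 counts against 271 in control siRNA (−0.41), and NCOA4, the receptor for ferritin autophagy, with 1889 against 2469 (−0.37). In the library labelled JFK the list ran from SLC11A2 at −0.17 and ACO1 at −0.16 to SLC48A1 and BLVRB at 0.20. The intervals of ACO1 and SLC48A1 held 0.

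The detoxification genes had the lowest median of the 7 lists in ING5 siRNA, −0.31, with 14 of 19 measured genes below 0. All genes measured had a median of −0.01. The 19 include AKR1B10 and CBR3, whose mean scaled counts were below 100. The interval lay wholly below 0 for 10 of the 19, AKR1B10 among them, and wholly above 0 for 5. Among all genes with a mean scaled count of at least 100, these shares were 24.2% and 20.5%. The conjugate exporter gene ABCC2 had 620 counts in ING5 siRNA and 997 in control siRNA (−0.67, interval −0.82 to −0.52). ABCC4 had 2718 counts against 4182 (−0.61), but its deposited count and RPKM do not match in that pair. PIR, AKR1B10, ALDH3A1 and AKR1C3 lay at −0.51, −0.56, −0.49 and −0.39, of which AKR1B10 had 50 counts against 75 in control siRNA. AKR1C1, AKR1C2 and AKR1C3 are closely related genes between which reads can be divided, so they are uncertain. Highest were NQO2 and TRIM16, at 0.39 and 0.27. In the library labelled JFK the same list had a median of 0.12, with AKR1B1 and ABCC4 both at −0.49, OSGIN1 at 0.33 and AKR1B10 at 0.38. The intervals of OSGIN1 (−0.18 to 0.85) and AKR1B10 (−0.08 to 0.85) held 0.

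Of the general antioxidant enzymes, the mitochondrial superoxide dismutase gene SOD2 had 2658 counts in ING5 siRNA and 1720 in control siRNA (0.64, interval 0.56 to 0.73), the catalase gene CAT 600 and 497 (0.29), and SOD1 2067 and 2231 (−0.09). In the library labelled JFK all 3 lay between 0.01 and 0.11.

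**Figure D4:**
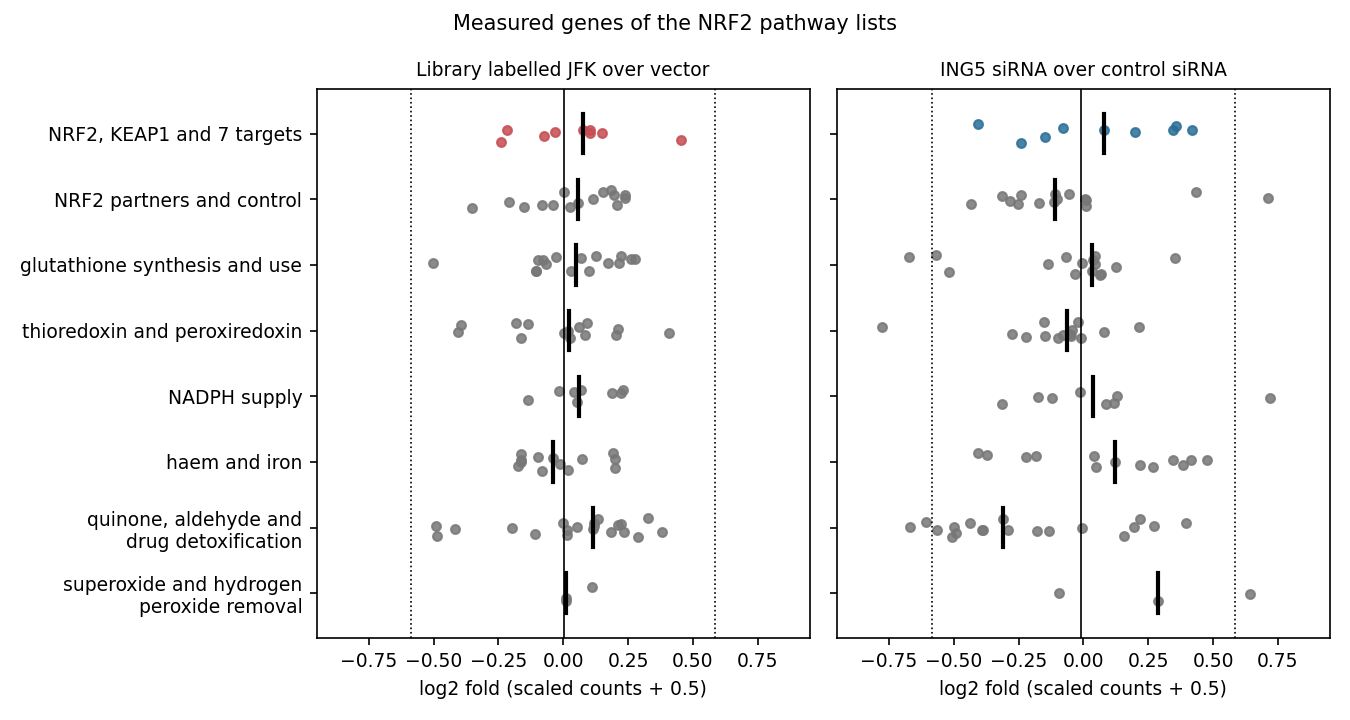
Log2 fold of each measured gene of the NRF2 members and the 7 other lists, in the library labelled JFK over vector (left) and ING5 siRNA over control siRNA (right). Points are genes, thick bars list medians, the solid line the median of all genes measured and dotted lines 1.5-fold; no point on the left passes 1.5-fold, and on the right 3 genes are higher and 4 lower.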

How the data were processed

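RNA of 4 libraries labelled HepG2 was sequenced with Illumina chemistry, per the labels' protocols. FastQC, fastp, STAR and DESeq2 with GRCh37 and hg19 are named without versions or roles, per the submitters' processing notes; which program counted reads, and whether strand was used, is not stated there. Expected counts and FPKM were deposited for the vector pair, and counts and RPKM were deposited for the siRNA pair, per the file headers. Entrez identifiers were matched to symbols through a RefSeq table of GRCh38.p14 (16900 of 17010 and 16771 of 16860 rows), and sequences and their coordinates are of that build. A row with a blank count and 4 rows of repeated identifiers were left out. No member had a disagreement between count and FPKM or RPKM (tolerance 0.001 counts in the siRNA tables; 20% in the ratio of the libraries in the vector pair).

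Counts were scaled within each pair with TMM (trims 0.3 and 0.05), 0.5 was added, and log2 ratios were taken with scipy 1.17.1, numpy 2.4.6 and pandas 2.3.3 under Python 3.11.15; plots used matplotlib 3.10.9. Genes with a mean scaled count of at least 20 were called measured. Expected counts were rounded for intervals. With 1 library per group no test across genes could be run, and none is reported. Without molecular identifiers reads may be copies of 1 molecule, so intervals cover counting error only. Summed gene counts were 7179360 to 9196980 per library, and a floor of 3 counts is 0.326 to 0.418 CPM. Alternatives were other scalings, FPKM or RPKM, another pseudocount, other filters and whole counts only; a lower threshold and control siRNA over vector were added after seeing the data. The script was tested on simulated data. Members, lists and thresholds were chosen with earlier results of these data known. Named genes are the 9 members, FBXO42, ING5, the 2 highest and 2 lowest of each list per pair and the 5 genes nearest to HMOX1. The relatives of HMOX1, TXNRD1 and NQO1 and others in the text were chosen after their values were seen.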

Additional observations from a re-analysis of the deposited data

How the results depend on the processing

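No member was 1.5-fold apart in either pair under any other scaling, unit, pseudocount or filter, and no member value changed direction in any of the 3 comparisons. In the vector pair 3 of 52 member values left the interval of the main setting. These were FTH1 with total-count scaling and by FPKM, and TXNRD1 by FPKM. In the siRNA pair 0 of 54 did so, and 14 of 52 for control siRNA over vector. At the lower threshold 1 member was apart in the library labelled JFK and 4 in ING5 siRNA. The count of all genes apart in the library labelled JFK, 432, was 3417 with no filter, 82 at a mean scaled count of at least 100, 199 with whole counts only and 1984 at the lower threshold. That of ING5 siRNA, 978, was 4376 with no filter, 461 at a mean of at least 100 and 3136 at the lower threshold. The other pathway genes apart in the library labelled JFK, 0, were 1 by FPKM, 4 with no filter and 10 at the lower threshold; in ING5 siRNA, 7 became 11 with no filter and 26 at the lower threshold. The members' median for control siRNA over vector, −0.42, was −0.59 with total-count scaling, −0.66 by RPKM over FPKM and −0.31 with whole counts only. With whole counts only, NQO1 and GCLM left the vector pair, and the members' median there was −0.06. The cause of the other shifts was not tested. No paired analysis was possible because each group holds 1 library. Depth limits HMOX1 most, with 124 to 170 counts per library.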
